A study of Mus musculus with 4 samples.

Results

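The cardiac transcription factor genes examined were Gata4, Gata6, Mef2a, Mef2c, Mef2d, Tbx5, Tbx20, Nkx2-5, Hand2 and Srf, chosen by name. Of the 10 genes, 9 were listed with at least 1 region of histone H3 lysine 23 (H3K23) propionylation, and together they had 20 of the 29210 merged regions in the deposited table. Tbx20, a T-box repressor needed for adult heart function, was listed with no region. The region nearest to its RefSeq gene span lay 121 kb away, so no ratio is given for it. For counts and medians, each gene is represented by the region whose middle lies nearest to its start, and its other regions are described separately. The 17640 gene names listed in the table served as the background.

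Propionylation was profiled by ChIP-seq in the heart of C57Bl/6J mice, all male and 12 weeks old, with 1 library per group and 3 hearts pooled in each library. The groups were BCAA-control diet with sham surgery, BCAA-control diet with transverse aortic constriction (TAC), BCAA-free diet with sham surgery, and BCAA-free diet with TAC. TAC narrows the aorta and loads the left ventricle with pressure, and the BCAA-free diet lacks leucine, isoleucine and valine, the branched-chain amino acids. Diets started 4 days ahead of surgery, were kept up after it, and hearts were collected 1 week after surgery.

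The factors belong to a few families that act together on the promoters and enhancers of cardiomyocyte genes. GATA zinc finger proteins, the NK homeobox protein Nkx2-5, T-box proteins and the basic helix-loop-helix protein Hand2 specify the heart in the embryo and maintain its contractile genes in the adult. The MADS-box proteins, which are the MEF2 family and SRF, couple calcium, kinase and actin signals to hypertrophic gene programs. Several of these genes, Gata4, Gata6, Hand2 and Mef2c among them, are also active in other cells of the heart such as fibroblasts or endothelial cells. Propionyl-CoA, the donor for histone propionylation, arises in part from the breakdown of isoleucine and valine.

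Promoter sequences of RefSeq, build GRCm38.p6, were matched for 7 of the 10 genes, with 9 entries because Mef2c has 3 starts. The starts in the deposited table lay 1 base from a RefSeq start for Mef2a, Mef2c, Nkx2-5, Hand2 and Srf, and 24 bases for Mef2d. For Gata4, Gata6 and Tbx5, without a matched promoter sequence, the start was not checked. The 250 bases before the start are shown for Nkx2-5, whose nearest region differed most between libraries, for Hand2, whose start lies in the middle of its region, for Srf, whose signal hardly differed between libraries, and for the first and second starts of Mef2c, which lie outside and inside a region. They correspond to chr17:26841566-26841815 on the minus strand (Nkx2-5), chr8:57320733-57320982 on the plus strand (Hand2), chr17:46556163-46556412 on the minus strand (Srf), and chr13:83503784-83504033 and chr13:83523406-83523655 on the plus strand (Mef2c). Capitals mark matches on either strand to the GATA motif (AGATAA or TGATAA), the NK2 motif (AAGTG), the T-box motif (AGGTGTGA), the E-box (CANNTG), the CArG box bound by SRF and the MEF2 box. A match is a description of the letters, not a site of binding.
Nkx2-5: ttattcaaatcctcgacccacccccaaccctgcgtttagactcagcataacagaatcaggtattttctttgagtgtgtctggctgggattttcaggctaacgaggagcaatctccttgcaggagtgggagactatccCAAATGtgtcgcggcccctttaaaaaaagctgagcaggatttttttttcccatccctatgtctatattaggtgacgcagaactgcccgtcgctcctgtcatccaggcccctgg
Hand2: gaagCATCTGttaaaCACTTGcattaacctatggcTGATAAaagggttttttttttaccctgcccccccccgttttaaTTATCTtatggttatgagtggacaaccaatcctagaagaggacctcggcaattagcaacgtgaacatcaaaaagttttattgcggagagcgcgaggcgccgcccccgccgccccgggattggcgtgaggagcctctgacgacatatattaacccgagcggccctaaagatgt
Srf: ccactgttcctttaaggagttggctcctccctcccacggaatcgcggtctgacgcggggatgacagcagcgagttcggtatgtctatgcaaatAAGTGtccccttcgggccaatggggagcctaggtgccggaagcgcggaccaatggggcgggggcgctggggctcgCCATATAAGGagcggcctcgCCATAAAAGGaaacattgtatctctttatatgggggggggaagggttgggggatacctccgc
Mef2c start 1: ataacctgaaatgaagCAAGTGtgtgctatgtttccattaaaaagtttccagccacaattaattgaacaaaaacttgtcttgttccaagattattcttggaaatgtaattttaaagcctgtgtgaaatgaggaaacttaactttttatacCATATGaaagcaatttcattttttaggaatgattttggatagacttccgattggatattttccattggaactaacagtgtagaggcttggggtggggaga
Mef2c start 2: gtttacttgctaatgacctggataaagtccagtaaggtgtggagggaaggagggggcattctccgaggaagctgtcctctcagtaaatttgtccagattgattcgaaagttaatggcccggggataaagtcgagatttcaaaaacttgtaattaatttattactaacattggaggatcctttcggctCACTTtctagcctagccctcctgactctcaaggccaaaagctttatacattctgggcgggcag

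The Srf promoter held CArG boxes that began 82 and 62 bases before the start, and CArG boxes were present in 1.47% of 32841 promoter windows of the same length. The Hand2 promoter held GATA matches that began 215 and 172 bases before the start, against 16.6% of all windows with at least 1 match. A run of letters in Hand2 at 235 bases before the start matched both the E-box and the NK2 motif, and the same overlap occurred in Mef2c start 1 at 234 bases. NK2 matches (40.7% of windows) and E-boxes (66.2%) were common everywhere. No T-box match (1.12%) or MEF2 box (1.69%) was found in the 9 member windows. The windows of Mef2a, Mef2d and Tbx20 were rich in CpG dinucleotides, with 21, 19 and 22 in 250 bases, against a median of 6 over all windows. The first Mef2c start had 1 CpG and the second had 6.

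Most of the nearest regions were long, Mef2c with 4 kb being the shortest. The nearest regions of the 9 genes had a median length of 34.8 kb (4 to 88.4 kb), against 7.6 kb for the nearest regions of all genes, and 5 of 9 reached 30 kb against 8.77% of all genes. A CpG island lay in 7 of 9, against 72.8% of all genes, and 4 of 9 held at least 2 islands, against 13.6%. All 9 had a peak call in each of the 4 libraries, against 81.3% of all genes. Gata4 lay in a region of 88.4 kb (chromosome 14, 63189400 to 63277799 as deposited, build mm10) with 5 CpG islands, and Nkx2-5 in a region of 37.4 kb (chromosome 17, 26833600 to 26870999) with 4 islands that reached from 29.4 kb upstream to 7.97 kb downstream of its start. These regions covered all of the RefSeq spans of Gata4, Gata6, Mef2d, Nkx2-5 and Hand2. Regions covered 91.3% of the Srf span, 67.0% of Mef2c, 32.4% of Mef2a and 22.5% of Tbx5. The Tbx5 span begins at 119796514, in no region and upstream of the region at the start used for its ratios, which begins at 119828200. The span and that start therefore differ for Tbx5.

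Levels are given as the average signal of a region, which is proportional to the number of fragments per base. This signal is on the authors' scale and does not depend on region length. In the control sham library the signal was highest at Mef2d (19.9), followed by Gata4 (15.8) and Hand2 (14.5). Mef2a (12.2), Srf (11.9), Gata6 (11.7) and Nkx2-5 (11.4) came next, and neighbours in this order did not differ beyond counting error. Tbx5 (8.80) and Mef2c (6.97) were lowest. Mef2d had the highest signal in each of the 4 libraries. Against the mean signal of all genes, Mef2d lay above 97.8% of them, Gata4 above 94.6%, Hand2 above 92.5%, and Tbx5 and Mef2c above 37.7% and 39.9%.

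**Figure D1:**
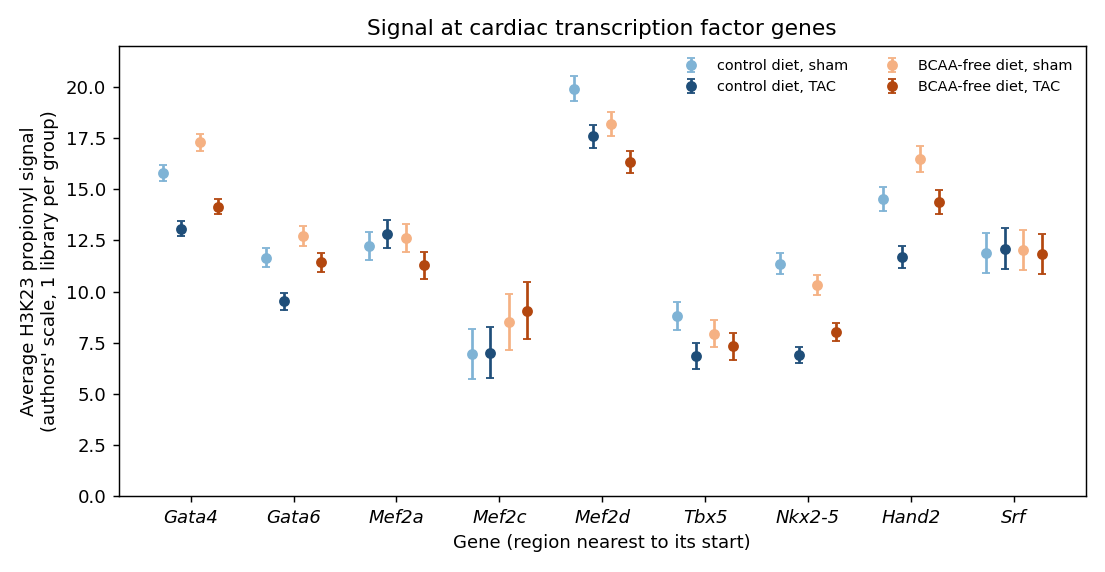
Average H3K23 propionylation signal (vertical axis, authors' scale) in the region nearest to the start of each gene (horizontal axis), with 1 point per library and bars that give the 95% counting interval. Gata4, Gata6, Mef2d, Tbx5, Nkx2-5 and Hand2 have a lower point in TAC than in sham on each diet, and Nkx2-5 has the widest gap, from 11.4 to 6.91 on the control diet.

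Differences are given as log2((A + 1)/(B + 1)) of the average signals of a pair of libraries, with 95% intervals from estimated tags that cover counting error only. The spread between pools of hearts could not be estimated, so none of the differences has a replicate check and no p-value is given. How the libraries were scaled is unknown here, and the ratios are therefore relative values among regions. In whole hearts, fewer cells of a type and less of the mark per cell cannot be told apart. A region was counted as past the limit when it differed by at least 1.5-fold, or 0.58 on the log2 scale. Median average signals over all regions were 6.80 to 7.10 in the 4 libraries, and the nearest regions of the 9 genes held 124 to 6821 estimated tags.

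On the control diet, 6 of the 9 genes had a lower signal after TAC by more than counting error, namely Nkx2-5, Tbx5, Hand2, Gata6, Gata4 and Mef2d. The other 3, Mef2a, Mef2c and Srf, differed by less than counting error, and none was higher. By the same rule 14.8% of all genes were lower and 22.6% higher. Long regions have narrow counting intervals, and among the 1547 genes whose nearest region reached 30 kb, 36.8% were lower and 36.1% higher. The median ratio of the 9 genes was −0.26, against 0.05 for all genes, and 10.8% of genes lay below −0.26. Only Nkx2-5 passed 1.5-fold, and it was lower. Among all 17640 genes, 2.1% were lower and 2.83% higher past 1.5-fold, and the count of 1 in 9 rests on a single region. On the BCAA-free diet, 6 of 9 genes were again lower by more than counting error, with Mef2a in place of Tbx5. Here 18% of all genes were lower and 10.6% higher by this rule, and 51.6% and 15.3% of the genes with a region of at least 30 kb. The median was −0.15 against −0.03 for all genes, and 0 of 9 passed 1.5-fold, where 0.68% of all genes were lower and 0.85% higher. The ratio was below 0 on both diets for 6 of 9 genes, against 30.6% of all genes. The genes with a region of at least 30 kb had a median of 0.00 with the control diet and −0.08 with the BCAA-free diet.

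**Figure D2:**
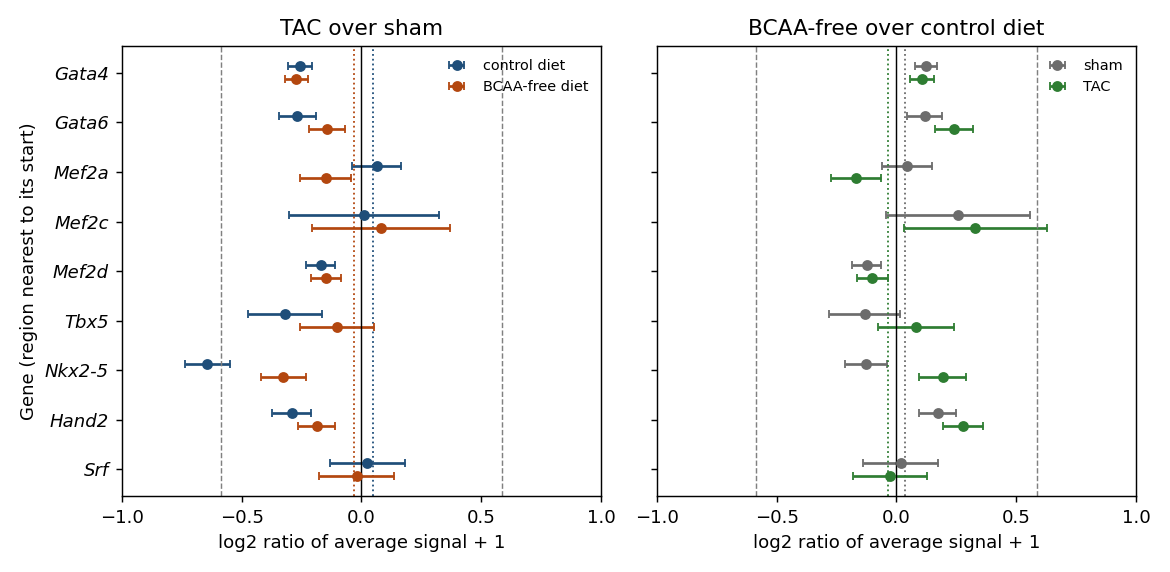
log2 ratio of the average signal + 1 (horizontal axis) for each gene (vertical axis), TAC over sham on each diet at left and BCAA-free over control diet within each surgery at right, with 95% counting intervals. Dotted lines mark the median of all genes, dashed lines 1.5-fold, and Nkx2-5 on the control diet (−0.64) is the 1 point beyond a dashed line.

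Nkx2-5 encodes the homeobox factor that marks the cardiac lineage and binds contractile and conduction genes together with GATA4 and TBX5. Its signal was 11.4 in control sham, 6.91 in control TAC, 10.3 in BCAA-free sham and 8.03 in BCAA-free TAC. Both TAC libraries lay below both sham libraries. The TAC ratio was −0.64 (−0.74 to −0.55) on the control diet, which placed Nkx2-5 above only 1.49% of all genes, and −0.33 (−0.42 to −0.23) on the BCAA-free diet, above 5.70% of them. Nkx2-5 was the sole gene listed for its region. The height of the highest point in the region, the peak height, was 67, 32, 63 and 45 in the same order, with TAC ratios of −1.04 and −0.48. With a pseudocount of 5 in place of 1, the control-diet ratio was −0.46 and no longer passed 1.5-fold.

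Gata4 and Gata6 encode closely related zinc finger activators, of which GATA4 is a known mediator of hypertrophic gene expression. The Gata4 signal was 15.8 in control sham, 13.1 in control TAC, 17.3 in BCAA-free sham and 14.1 in BCAA-free TAC. Again both TAC values were below both sham values, and the TAC ratios of −0.26 (−0.30 to −0.21) with the control diet and −0.27 (−0.32 to −0.22) with the BCAA-free diet were close to each other. The region also lists Neil2, a DNA repair gene, so the ratio belongs to the region. By peak height the Gata4 ratio on the control diet was −0.53. The region at Gata6 (chromosome 18, 11045400 to 11091199), which also lists 1010001N08Rik, had signals of 11.7, 9.52, 12.7 and 11.4 in the same order of libraries. Here control TAC was the lowest and BCAA-free sham the highest, and the BCAA-free TAC library lay close to control sham. The TAC ratios were −0.27 (−0.35 to −0.19) and −0.14 (−0.22 to −0.07), and by peak height the latter was 0.04. A second Gata6 region, with its middle 46889 bases downstream of the start, had 8.10, 6.31, 7.11 and 7.31.

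Hand2 encodes a basic helix-loop-helix factor of the right ventricle and of the cardiac stroma. Its signal was 14.5 in control sham, 11.7 in control TAC, 16.5 in BCAA-free sham and 14.4 in BCAA-free TAC. Within each diet the TAC library was lower, and BCAA-free TAC was close to control sham. The TAC ratios were −0.29 (−0.37 to −0.21) and −0.19 (−0.26 to −0.11), and by peak height −0.38 and −0.08. The Hand2 region (chromosome 8, 57303200 to 57337999) had a length of 34.8 kb around the start, far beyond the gene span of 3.54 kb.

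Tbx5 encodes the T-box activator of atrial, ventricular and conduction genes. The region at its start (chromosome 5, 119828200 to 119843599), which also lists Gm5563, had signals of 8.80, 6.85, 7.94 and 7.32 in the order control sham, control TAC, BCAA-free sham and BCAA-free TAC. Control sham was highest, and the other 3 libraries lay between 6.85 and 7.94. The TAC ratio was −0.32 (−0.47 to −0.17) on the control diet and −0.10 (−0.26 to 0.05) on the BCAA-free diet. By peak height the 4 libraries were at 26, 26, 28 and 31, so that the control-diet ratio was 0.00 and that on the BCAA-free diet 0.14. A second region within the gene, 42436 bases from the start, had signals of 5.10, 3.24, 2.93 and 3.55 and a peak call in control sham alone.

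**Figure D3:**
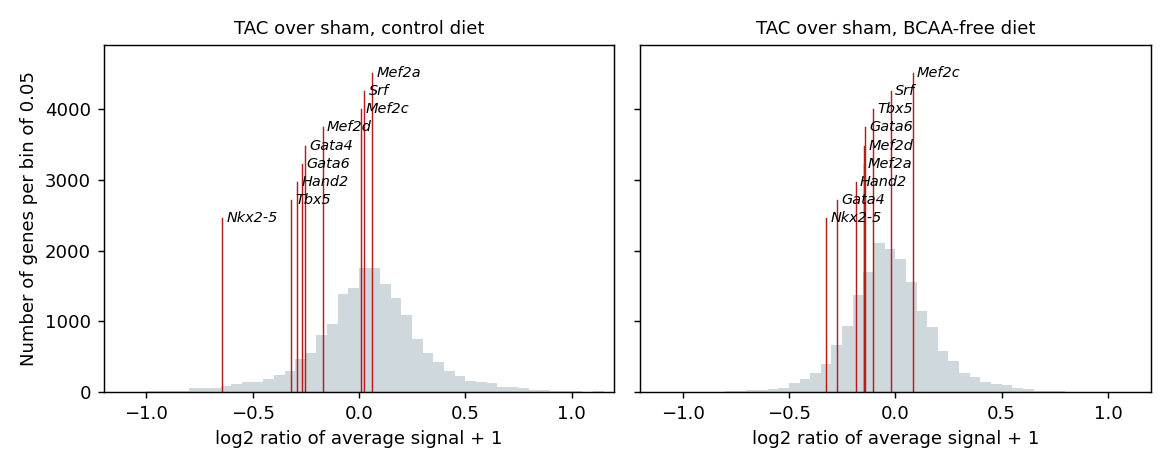
Distribution over 17640 genes of the TAC ratio (log2, TAC over sham) in the nearest region (horizontal axis, bins of 0.05; vertical axis, number of genes), with the control diet at left and the BCAA-free diet at right. Vertical lines mark the 9 cardiac factor genes, and their height carries no value. Nkx2-5 is the lowest of the 9 on each diet, and 10.8% of genes lie below the median of the 9 on the control diet.

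The MADS-box genes comprised Mef2a, Mef2c, Mef2d and Srf. By the region nearest to the start, Mef2d alone of these was lower in TAC beyond counting error on both diets. MEF2 proteins are released from class II histone deacetylases under load, and in adult cardiomyocytes MEF2D is a known mediator of stress-dependent remodelling. The region at Mef2d (chromosome 3, 88129400 to 88175999), which also lists Iqgap3, Gm19451 and 1700113A16Rik, had signals of 19.9 in control sham, 17.6 in control TAC, 18.2 in BCAA-free sham and 16.3 in BCAA-free TAC. Each TAC library lay below the sham library of its diet, with ratios of −0.17 (−0.23 to −0.11) and −0.15 (−0.21 to −0.08). By peak height the control-diet ratio was 0.04.

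Srf encodes serum response factor, which binds CArG boxes such as those in its own promoter shown above. The region at its start (chromosome 17, 46549200 to 46559799), which also lists Cul9 and Ptk7, had 11.9, 12.1, 12.0 and 11.8 in the same order of libraries. These signals were level across the groups, with TAC ratios of 0.02 (−0.13 to 0.18) and −0.02 (−0.18 to 0.14). The second Srf region, 10363 bases downstream, had signals of 6.75, 7.11, 7.46 and 8.11. The Srf ratios at the start were 0.29 and −0.03 by peak height.

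Mef2a had 5 regions that did not move together. The region at its start (chromosome 7, 67354400 to 67377399), with its middle 6959 bases downstream, had signals of 12.2 in control sham, 12.8 in control TAC, 12.6 in BCAA-free sham and 11.3 in BCAA-free TAC, with TAC ratios of 0.06 (−0.04 to 0.17) and −0.15 (−0.25 to −0.04). By peak height these were −0.21 and −0.28, so that the sign on the control diet turned. A short region upstream, with its middle 7641 bases before the start, had 4.50, 8.82, 6.22 and 7.57, a ratio of 0.84 (0.48 to 1.19) on the control diet and 0.25 (−0.10 to 0.59) on the BCAA-free diet. Control sham was the low library there, and a peak was called in control TAC alone. The region 47559 bases into the gene had 3.17, 5.90, 4.21 and 3.02, from only 18.9 to 36.9 estimated tags, and its control-diet ratio was 0.73 (0.10 to 1.35). There too a peak was called in control TAC alone. At the far end of the gene, 138159 bases from the start, a region of 28.2 kb shared with Lysmd4 had 8.83, 6.93, 8.10 and 7.003, lower in TAC with ratios of −0.31 (−0.42 to −0.20) and −0.19 (−0.30 to −0.07). Of the 20 regions of the 9 genes, 1 was lower and 2 were higher past 1.5-fold on the control diet, against backgrounds of 5.31% lower and 4.38% higher. Both higher ones were at Mef2a and were called in control TAC alone, the library in which they were high. Their listing thus depended on that library, and their ratios are not separate support for a higher signal in TAC. On the BCAA-free diet 0 of 20 passed, against backgrounds of 1.41% higher and 2.37% lower.

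Mef2c, which encodes an activator of cardiac morphogenesis and of endothelial genes, also had 5 regions. The most distal of its 3 RefSeq starts lay in no region. The second start lay in a region of 30.4 kb with 8.81, 9.37, 9.42 and 7.96, and the third in a region of 57.4 kb with 9.62, 9.27, 9.52 and 8.49. In these long regions BCAA-free TAC was the lowest library, with TAC ratios on the BCAA-free diet of −0.22 (−0.32 to −0.11) and −0.15 (−0.22 to −0.07), against 0.08 (−0.02 to 0.18) and −0.05 (−0.12 to 0.03) on the control diet. The short region nearest to the distal start, of 4 kb, represented the gene in the counts above and had 6.97, 7.02, 8.52 and 9.07, from 124 to 162 estimated tags. In it the libraries of the BCAA-free diet were the higher ones, and the TAC ratios of 0.01 (−0.30 to 0.32) and 0.08 (−0.20 to 0.37) did not exceed counting error. By peak height they were −0.32 and 0.29.

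**Figure D4:**
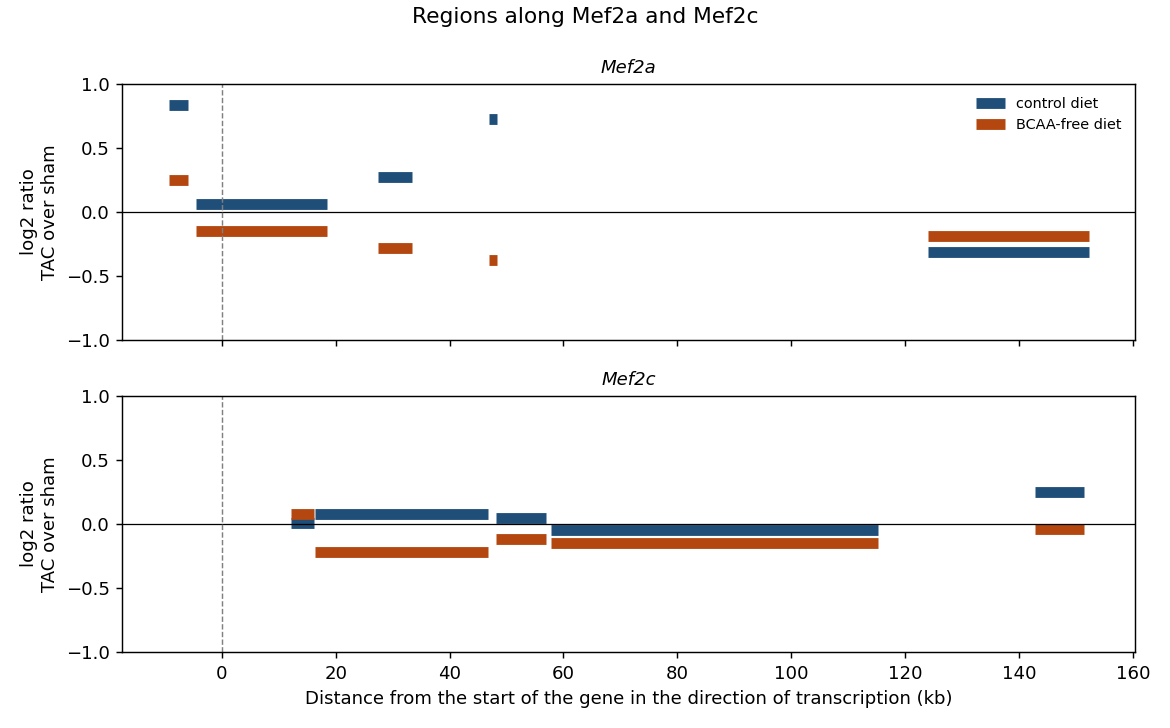
log2 ratio of TAC over sham (vertical axis) in each region of Mef2a (top) and Mef2c (bottom), drawn along the distance from the start of the gene (horizontal axis, kb; dashed line, start), where each bar spans the length of a region. In 8 of the 10 regions the bar of the BCAA-free diet lies below that of the control diet, as in 61.6% of all regions, and the upstream Mef2a region is at 0.84 on the control diet. The 10 regions were grouped after their values were seen. Some of the 8, with the upstream Mef2a region among them, were called in control TAC alone.

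Subtracting the control-diet TAC ratio from that of the BCAA-free diet compares pairs that share no library. The difference was 0.32 (0.19 to 0.45) for Nkx2-5 and 0.12 (0.02 to 0.23) for Gata6, the 2 genes with a smaller difference on the BCAA-free diet beyond counting error, where 5.73% of all genes were above 0 by this rule. Among genes with a region of at least 30 kb, as both have, 12.3% were above 0. For Mef2a the difference was −0.21 (−0.36 to −0.06), where 15.5% of all genes were below 0. For Gata4 (−0.02), Mef2d (0.02), Srf (−0.04), Mef2c (0.07), Hand2 (0.11) and Tbx5 (0.22) the interval held 0. The median of the 9 genes was 0.07, against −0.07 for all genes. The median of the 9 was 0.23 by peak height, 0.14 with libraries scaled to the same median and 0.02 when a gene's strongest region stood for it. The median of all genes in these settings was −0.09, −0.003 and −0.07. With scaled libraries the gap between the 9 and all genes was 0.142, as in the main setting. Taken by peak height, the differences were 0.62 for Mef2c, 0.57 for Nkx2-5, 0.29 for Hand2, 0.24 for Gata4, 0.23 for Gata6, 0.14 for Tbx5, −0.07 for Mef2a, and −0.33 for both Mef2d and Srf. In the 10 regions of Mef2a and Mef2c, grouped after their values were seen, the TAC ratio was lower on the BCAA-free diet in 8, against 61.6% of all regions. Among the 8, the Mef2a regions with middles 7641 bases before and 47559 bases after the start were called in control TAC alone. So was the Mef2c region 147065 bases from the start. Listing through that library favours a lower ratio on the BCAA-free diet. Over all 20 regions of the 9 genes the TAC ratio was lower on the BCAA-free diet in 10. In 6 of the 20 the ratios had opposite signs on the diets and the difference exceeded counting error, against 13.5% of all regions. Some of these 6 were listed only through libraries in which they were high, as described in the closing section.

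**Figure D5:**
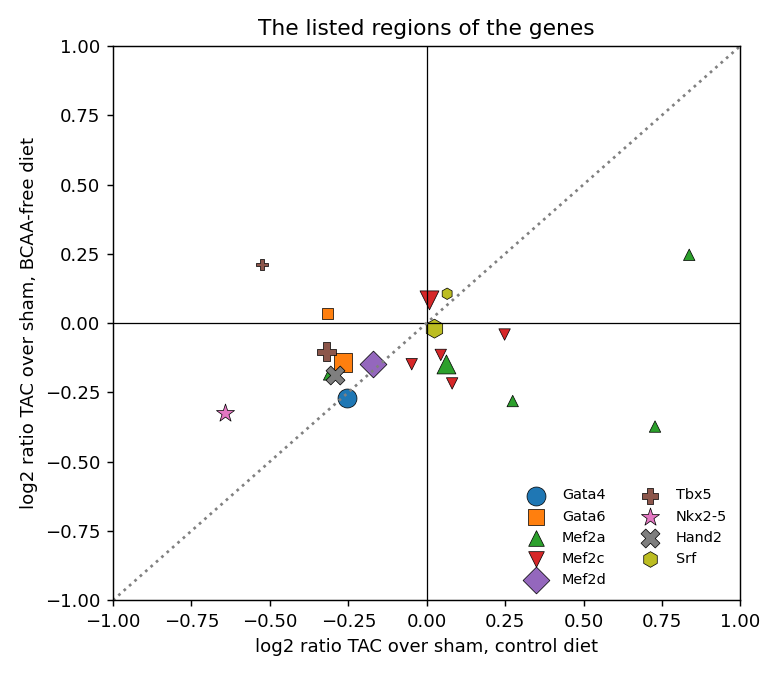
TAC ratio (log2, TAC over sham) with the control diet on the horizontal and the BCAA-free diet on the vertical axis, for the 20 regions of the 9 genes, with large symbols for the region nearest to the start and small ones for the others. The dotted line marks equal ratios; 10 of the 20 regions lie below it, against 61.6% of all regions.

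Comparisons between diets use the same 4 libraries in other pairs and are given as values only. In sham hearts the signal on the BCAA-free diet was higher beyond counting error at Hand2 (0.17, 0.10 to 0.25), Gata4 (0.12, 0.08 to 0.17) and Gata6 (0.12, 0.04 to 0.19), and lower at Nkx2-5 (−0.13, −0.21 to −0.04) and Mef2d (−0.12, −0.18 to −0.06). By the same rule 16.1% of all genes were higher and 11.6% lower. Among genes with a region of at least 30 kb, as these 5 have, 27.7% were higher and 33.4% lower. In this comparison 8 of 8 fibroblast markers were higher, with a median of 0.58 and 4 past 1.5-fold, against 57.7% of all genes above 0, and their part in the values of Hand2, Gata4 and Gata6 was not tested. The median of the 9 genes was 0.04, as was that of all genes. None of the 9 passed 1.5-fold, where 1.03% of all genes were higher and 0.488% lower. By peak height the ratios of Hand2, Mef2a, Mef2d and Tbx5 were −0.06, −0.12, 0.09 and 0.10, each with its sign turned. In TAC hearts the BCAA-free library was higher beyond counting error at Mef2c (0.33, 0.03 to 0.63), Hand2 (0.28, 0.19 to 0.36), Gata6 (0.24, 0.16 to 0.32), Nkx2-5 (0.19, 0.09 to 0.29) and Gata4 (0.11, 0.06 to 0.16), and lower at Mef2a (−0.17, −0.27 to −0.06) and Mef2d (−0.10, −0.16 to −0.04), where 6.6% of all genes were higher and 17.2% lower. Among genes with a region of at least 30 kb, 6.66% were higher and 52.4% lower in TAC hearts. The median of the 9 genes was 0.11 against −0.04 for all genes, and 0 of 9 passed 1.5-fold, where 0.402% of all genes were higher and 0.488% lower. Among the 20 regions, the inner Tbx5 region was lower past 1.5-fold in sham (−0.63, backgrounds of 2.71% higher and 1.37% lower) and the short Mef2a region 47559 bases from the start in TAC (−0.78, backgrounds of 0.948% and 0.962%). The former was called in control sham alone and the latter in control TAC alone. Each was thus listed only through the library in which it was high. The Mef2c value at the nearest region rests on its short region, since the region of highest signal gave −0.11 and the mean over all 5 regions −0.14.

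Genes that work with these factors were set beside them. Of 15 partners of the factors, including the FOG proteins, myocardin-family coactivators, class II histone deacetylases and NFAT proteins, all were listed, and 1 was lower past 1.5-fold on each diet with 0 higher. This was Myocd, the SRF coactivator of muscle genes, with signals of 9.97 in control sham, 5.69 in control TAC, 8.87 in BCAA-free sham and 5.46 in BCAA-free TAC. Both TAC libraries lay well below both sham libraries, with ratios of −0.71 (−0.81 to −0.62) and −0.61 (−0.71 to −0.51), in a region that also lists Gm12295. Of 16 further cardiac factors, 14 were listed, and 1 was lower past 1.5-fold on the control diet. This was Irx4, a homeobox gene of the ventricle, with −0.59 (−0.71 to −0.47) from 9.11 in sham to 5.74 in TAC. Of 20 known targets, 15 were listed, and 3 were lower past 1.5-fold on the control diet, namely cardiac actin Actc1 (−0.89), the mitochondrial creatine kinase gene Ckmt2 (−0.87) and the alpha myosin gene Myh6 (−0.78). Of the 15, 10 were below 0 and 5 above 0 on the control diet. Myl7, Gja5, Nppa, Nppb and Acta1 were not listed, so the counts and medians of the targets hold no value for them. The Actc1 region also lists C130080G10Rik, the Ckmt2 region Rasgrf2, and the Myh6 region Mir208a, Mir208b, D830015G02Rik and the beta myosin gene Myh7. On the BCAA-free diet 0 of the further factors and 0 of the targets passed 1.5-fold. Of all genes, 2.1% were lower and 2.83% higher past 1.5-fold on the control diet, and 0.68% and 0.85% on the BCAA-free diet. The median TAC ratios on the control and BCAA-free diets were −0.10 and −0.19 for partners, −0.17 and −0.08 for further factors, and −0.30 and −0.12 for targets. For all genes they were 0.05 and −0.03.

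Marker genes of the cell types of the heart also differed between the libraries. All 8 cardiomyocyte markers were listed, with none at 0, and their summed signal was 85.3 in control sham, 58.0 in control TAC, 80.4 in BCAA-free sham and 66.2 in BCAA-free TAC. Of these 8, 7 were lower in TAC on each diet, with median ratios of −0.57 and −0.24, where 40.5% of all genes were below 0 on the control diet and 57.0% on the BCAA-free diet. Myh6, Tnnt2, Myl2 and Tnni3 are also in the list of targets above, so the values of the lists are not independent. Of 8 leukocyte markers 7 were listed, Adgre1 being the exception, and their sum was 54.9, 77.5, 53.3 and 64.7 in the same order. All 7 were higher in TAC on the control diet and 5 of 7 on the BCAA-free diet, against 59.4% and 43.0% of all genes. The 8 fibroblast markers summed to 52.0, 63.5, 77.2 and 72.7, and in TAC against sham 8 of 8 were higher on the control diet and 6 of 8 lower on the BCAA-free diet. Summed signals in the same order were, for the 8 endothelial markers, 93.5, 83.5, 83.6 and 77.8 and, for the 8 smooth muscle and pericyte markers, 59.7, 61.5, 66.8 and 62.0. The part of these shifts in the ratios of the cardiac factor genes was not tested.

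The profile of the 9 genes over the 4 libraries was compared with that of 4718 other genes with the middle of their region at most 2500 bases from the start and with more signal than the median gene. Likeness was measured as the root mean square difference of centred log2 signals over the 4 libraries. The closest were Coq10a (0.00854), Gmeb2, Ift88, Snrpa1 and Pdk2 (0.0133), against a median of 0.128 over these genes. Members themselves lay between 0.0542 (Gata4) and 0.169 (Nkx2-5) from their own mean profile, so the mean stands for Gata4, Gata6 and Tbx5 better than for Nkx2-5 and Mef2c. The Coq10a region, which also lists Cs and Ankrd52, had signals of 10.2, 8.65, 10.5 and 9.29.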

How the data were processed

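The authors deposited 1 table of 29210 merged regions from ChIP-seq for propionylated H3K23 in 4 libraries. Per the submitters' processing notes, BWA, MACS2 and the build mm10 were used, with no version or role stated. Per the file headers, each region has an average signal, a peak height (also a signal) and a peak call per library, and log2 ratios of the average signal for pairs of libraries. The deposited log2 ratios equalled the log2 quotient of the average signals to within 4.44e-16. No source used here gives the scaling of the signal.

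The listed region whose middle lies nearest to the start stood for a gene. Ratios used a pseudocount of 1 and no filter on low values. Estimated tags were the average signal times the listed region length divided by 224, a relation that gave the deposited tag numbers in all 29210 regions to within 0.1%, and 95% intervals from them cover counting error only. With 1 library per group no test was made. The members and lists were chosen with earlier results of these data known. Genes named outside the set were those of each list past 1.5-fold, up to 3 per list and comparison, and the 5 of most similar profile. Alternatives covered the pseudocount, median scaling, quantile normalisation, peak height, the choice of region, a minimum signal and genes alone in their region. The 1.5-fold rule and the counting intervals were tried on simulated counts with counting error only, which hold no spread between pools. The other steps were not simulated. Python 3.11.15, numpy 2.4.6 and pandas 2.3.3 were used.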

Additional observations from a re-analysis of the deposited data

Results flagged for a closer look

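In 6 regions the TAC ratios of the 2 diets had opposite signs and the difference exceeded counting error, that is in 6 of 20, against 13.5% of all 29210 regions by the same rule. By peak height the Mef2a region at the start had the same sign on both diets, with ratios of −0.21 and −0.28 and a difference of −0.07. The Gata6 region had peak-height ratios of −0.08 and −0.10, and the Tbx5 region 0 and 0.14, so these lost the opposite signs as well. The Mef2a regions 30459 and 47559 bases from the start and the Mef2c region kept opposite signs by peak height. With 1 library per group the difference was not tested against the spread between pools. The Tbx5 region was called in control sham alone and the Mef2a region 47559 bases from the start in control TAC alone. The Mef2a region at 30459 bases was called in control TAC and BCAA-free sham only. These regions were listed only through libraries in which they were high, which favours opposite signs. The regions of 1 gene are also not independent, so the count of 6 is descriptive. The BCAA-free TAC ratio less the control-diet ratio was −0.21 in the Mef2a region at the start, −0.56 in the Mef2a region 30459 bases from it (signals of 3.95 in control sham, 4.99 in control TAC, 5.22 in BCAA-free sham and 4.12 in BCAA-free TAC) and −1.10 (−2.01 to −0.19) in the short Mef2a region 47559 bases from it. It was −0.30 (−0.45 to −0.15) in the Mef2c region of 30.4 kb that holds the second start. It was 0.35 (0.08 to 0.62) in the Gata6 region 46889 bases downstream and 0.74 (0.22 to 1.25) in the Tbx5 region 42436 bases from the start.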

How the results depend on the processing

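No paired analysis was possible because each group had 1 library. For the same reason no replicate could be left out. The median TAC ratio of the 9 genes on the control diet stayed below 0 under each of the 9 alternatives. It was −0.20 at a pseudocount of 5 (0.03 for all genes) and −0.14 over the 4 genes alone in their region (0.05 for all such genes). On the BCAA-free diet it was −0.083 after quantile normalisation, against 0.03 for all genes. The gap to all genes was −0.113 there and −0.115 in the main setting. With a pseudocount of 5, 0 genes passed 1.5-fold on the control diet. The median diet ratio in TAC hearts was 0.25 by peak height (0 for all genes) and 0.23 over genes alone in their region (−0.02 for all such genes). By peak height 1 gene (Mef2c) passed 1.5-fold, where 3.25% of all genes were higher and 3.27% lower. For single genes, 336 of 380 values under the alternatives moved by less than their counting interval and 44 by more, 33 of them by peak height. The 336 include values that could not move, namely 45 with a minimum signal and 20 for genes alone in their region. The choice of region likewise could not move a gene with 1 region. By peak height 33 values moved and 12 did not. The cause of the moves was not tested. The unknown scaling limits statements on the total level of the mark, and the lack of replicates limits every difference.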
